A study of Mus musculus with 39 samples.

Results

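Peaks of NOTCH and RBPJ were collected for 9 genes that carry the Wnt signal from the cytoplasm to chromatin: Ctnnb1, Tcf7, Tcf7l1, Tcf7l2, Lef1, Axin1, Axin2, Apc and Gsk3b. A peak was counted for a gene when the nearest start site of any transcript of a protein-coding gene on mm10 (GRCm38) belonged to it. This gave 40 of the 20809 consensus peaks on the nuclear chromosomes, spread over 8 of the 9 genes. Axin1 had 0. Tcf7l2 had 15 of the 40 and Tcf7l1 had 9, and 34 of the 40 were called for RBPJ in radial glial cells (RGCs).

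The study profiled chromatin binding in the embryonic cortex of wild-type MF1 mice by in utero Targeted DamID (TaDa), in which a Dam methylase fused to a protein marks GATC sites near the places it occupies. Plasmids were electroporated at E13.5 and the tissue was taken at E14.5. The Hes5 promoter drove the fusions in RGCs, the neural stem cells of the cortex, and the Tα1 promoter drove them in intermediate progenitor cells (IPCs). Cell types were therefore set by these promoters. RBPJ in RGCs was the human RBPJ1 fusion in 3 samples, and RBPJ in IPCs was the same fusion in 3 samples. Notch in RGCs comprised 2 samples of mouse NICD, the intracellular domain, and 2 of mouse NdECD, which lacks the extracellular domain. All 4 Notch samples of IPCs carried mouse NICD. Both Notch forms act without a ligand, and both were supplied by the plasmid. As controls for both proteins, Dam with no fusion partner was expressed in 5 samples of RGCs and in 4 of IPCs. These 4 groups gave 1 pooled peak list each, and overlapping peaks of the 4 lists were merged by the authors into consensus peaks with 1 of 8 k-means clusters. The lists hold where each peak lies but neither its height nor values of individual samples, so that sequencing depth and the spread between replicates are not known here. No test between conditions was possible. Shares carry Wilson 95% intervals. These reflect the counting of peaks and no other error, and peaks of 1 gene are not independent of each other. A peak entered a list when each fusion sample showed it over each of its controls, so a gene without a peak in a list was not called there, which does not show that it was unbound.

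In canonical Wnt signalling, a cytoplasmic complex built on the scaffolds AXIN and APC lets the kinase GSK3B phosphorylate beta-catenin, which is then degraded. A Wnt ligand stops this, and beta-catenin enters the nucleus, where it has no DNA-binding domain of its own and acts through the Tcf/Lef factors. In the developing cortex the pathway is known for keeping progenitors proliferating and for patterning the medial side. RBPJ is the DNA-binding partner of NOTCH and binds the word TTCCCA, and TTCCCAC is its longer form. Tcf/Lef factors bind CTTTGAT, and homeobox factors such as LHX2 bind TAATTA.

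The RBPJ word is shown in its genomic setting for 7 members, because it is the sequence that the fused RBPJ reads. In each gene the peak called in the most lists was used, or the one nearest a start site where peaks tied. The word nearest the peak centre with 60 bases free of protein-coding exons was read from GRCm38, 5′ to 3′ on the strand of the word. The longer form TTCCCAC was preferred over TTCCCA where the peak held it. The word is in capitals. In Lef1 this first peak held no such window, and the next in the same order is shown.
Ctnnb1, upstream of the gene (chr9:120869861-120869920, minus strand): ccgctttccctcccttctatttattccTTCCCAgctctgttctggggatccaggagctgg
Tcf7, upstream of the gene (chr11:52285163-52285222, plus strand): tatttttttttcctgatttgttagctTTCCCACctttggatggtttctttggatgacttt
Tcf7l1, in the gene (chr6:72637982-72638041, minus strand): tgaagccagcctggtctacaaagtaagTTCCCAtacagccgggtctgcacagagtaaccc
Tcf7l2, upstream of the first exon (chr19:55740830-55740889, plus strand): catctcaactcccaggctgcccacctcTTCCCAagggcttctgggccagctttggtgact
Lef1, in the gene (chr3:131137225-131137284, plus strand): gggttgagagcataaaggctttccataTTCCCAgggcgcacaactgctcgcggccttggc
Axin2, in the gene (chr11:108922641-108922700, minus strand): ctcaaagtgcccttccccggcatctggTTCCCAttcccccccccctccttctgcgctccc
Gsk3b, upstream of the first exon (chr16:38088414-38088473, plus strand): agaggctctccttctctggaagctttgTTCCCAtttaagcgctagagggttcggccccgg
The Ctnnb1 word lay 4 bp from the centre of its consensus peak and inside the peaks of RGC RBPJ, IPC RBPJ and IPC Notch alike. The other words lay further from their centres: 198 bp (Tcf7), 199 (Lef1), 268 (Axin2), 798 (Gsk3b), 858 (Tcf7l1) and 1316 (Tcf7l2). The Tcf7l1 word lay inside both RGC peaks, and the Tcf7l2 word inside both RBPJ peaks. In Tcf7 the longer word TTCCCAC, which contains TTCCCA, was taken by this preference, so it need not be the TTCCCA nearest the centre. The Axin2 word was covered by IPC RBPJ, and those of Tcf7 and Gsk3b by RGC RBPJ. The Lef1 word was covered by the RBPJ peaks of both cell types. The word is frequent, and 82.9% of all consensus peaks held TTCCCA on either strand, so its presence in a peak is a description and not a site.

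The start of a gene was covered by a peak in several members, and 3 promoters are shown for Tcf7l2 and Lef1, the members with peaks on more than one promoter. Sequences are from the RefSeq promoter table (GRCm38.p6), 250 bases before the start site, with the GATC sites that Dam can methylate in capitals.
Tcf7l2, first promoter (chr19:55741560-55741809, plus strand): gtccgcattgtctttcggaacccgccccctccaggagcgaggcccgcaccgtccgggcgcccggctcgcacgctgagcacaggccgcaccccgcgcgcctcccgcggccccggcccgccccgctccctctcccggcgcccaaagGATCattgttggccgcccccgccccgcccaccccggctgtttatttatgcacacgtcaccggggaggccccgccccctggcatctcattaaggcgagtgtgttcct
Tcf7l2, internal promoter (chr19:55895071-55895320, plus strand): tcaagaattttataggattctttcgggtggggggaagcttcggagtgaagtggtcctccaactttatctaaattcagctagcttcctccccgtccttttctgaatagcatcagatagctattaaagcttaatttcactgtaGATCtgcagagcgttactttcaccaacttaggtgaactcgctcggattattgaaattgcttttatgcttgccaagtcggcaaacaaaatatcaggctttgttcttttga
Lef1, internal promoter (chr3:131112541-131112790, plus strand): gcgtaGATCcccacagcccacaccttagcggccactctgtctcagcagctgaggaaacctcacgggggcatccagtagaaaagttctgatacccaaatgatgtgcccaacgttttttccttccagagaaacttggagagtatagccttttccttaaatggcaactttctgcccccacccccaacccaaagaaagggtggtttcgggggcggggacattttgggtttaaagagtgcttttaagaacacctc
The first promoter of Tcf7l2 lay inside the peaks of RGC RBPJ and IPC RBPJ, and its internal promoter inside a peak of RGC RBPJ. The internal promoter of Lef1 lay inside the peaks of RGC RBPJ and RGC Notch. None of the 3 stretches held TTCCCA or CTTTGAT on either strand. Over the same 250 bases of the 32851 promoters in the table, 21.6% held TTCCCA, 3.21% CTTTGAT and 41.9% GATC. With the 50 bases after the start included, the internal promoter of Lef1 held 1 TTCCCA word, as did 25.6% of promoters at least once. Of the covered promoters not printed, that of Tcf7l1 (RGC RBPJ) held 1 TTCCCA in its 250 bases, and that of Gsk3b (RGC RBPJ) none. The Lef1 promoters nearer its 5′ end, inside RGC RBPJ only, held none in 250 bases and 1 each with the 50 bases included. The promoters of Ctnnb1, Tcf7 and Axin2 in this table held no peak of any list. Apc and Axin1 had no entry.

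By list, the peaks of these genes were mostly those of RBPJ in RGCs. Of the 40 consensus peaks, 34 (85.0%, interval 70.9 to 92.9) were called in RGC RBPJ, against 67.6% of all consensus peaks, and the background lay below the interval. This separation was lost under 4 of the 8 other ways to choose the peaks, whose intervals held 67.6%: 5′ ends of genes only (32 of 39, 67.3 to 91.0), peaks within 100 kb (26 of 31, 67.4 to 92.9), gene bodies with 5 kb upstream (21 of 25, 65.3 to 93.6), and all annotated genes competing for a peak, non-coding ones included (14 of 18, 54.8 to 91.0). Without Tcf7l2 it was 22 of 25 (70.0 to 95.8). The 67.6% stayed that of all consensus peaks throughout, also where the peaks of the members were limited by distance, width or gene body. The share was not matched for width. RGC Notch was called in 6 (15.0%, 7.06 to 29.1), against 17.7%. IPC RBPJ was called in 8 (20.0%, 10.5 to 34.8), against 26.2%. IPC Notch was called in 5 (12.5%, 5.46 to 26.1), against 10.1%. For these 3 lists the background lay inside the interval. With these start sites and this number of peaks, the share of the members was not distinguishable from that of all peaks. For IPC Notch this depended on the start sites used. With 5′ ends of genes only its share was 8 of 39 (20.5%, 10.8 to 35.5), and 10.1% lay below the interval. With start sites of protein-coding transcripts only it was 8 of 41 (19.5%, 10.2 to 34.0), and 10.1% again lay below. Under the remaining ways to choose the peaks the IPC Notch interval held 10.1%. In the plot of shares by list the RBPJ bar of RGCs is the only one whose interval stands clear of the grey bar.

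**Figure D1:**
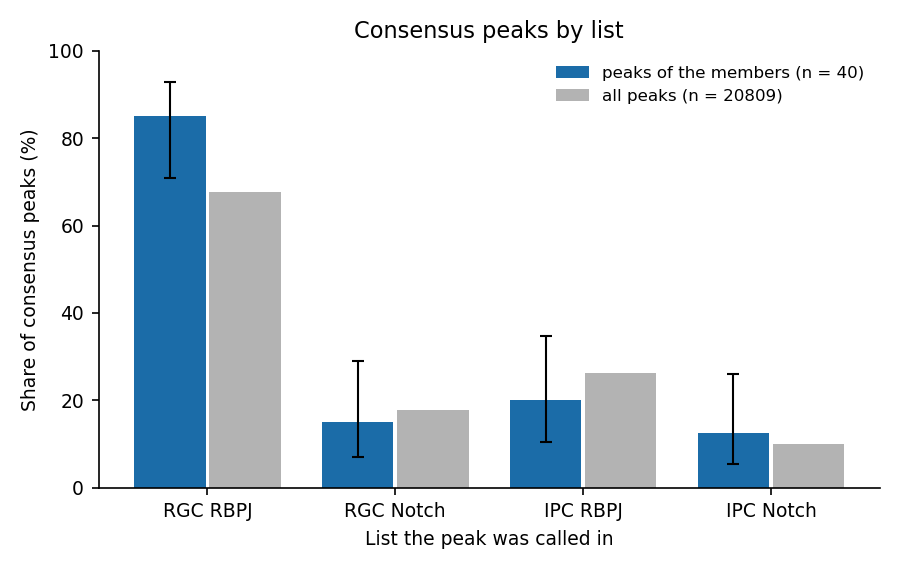
Share of consensus peaks (%) called in each of the 4 lists, for the 40 peaks of the 9 genes (blue, with Wilson 95% intervals) and for all 20809 (grey). The RGC RBPJ bar stands at 85.0% against 67.6%, and the other grey bars lie inside the intervals of the blue ones.

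Of the 40 peaks, 30 were called in 1 list only (75.0%, 59.8 to 85.8, against 82.9%), and 25 of these in RGC RBPJ. There were 3 peaks called in 3 lists, 1 at Ctnnb1 and the others at Tcf7l2 (7.50%, 2.58 to 19.9, against 3.88% called in 3 or 4). None was called in all 4. Between cell types, which do not share Dam-only samples, 5 consensus peaks were called for RBPJ in both: these were 62.5% of the 8 in IPC RBPJ (30.6 to 86.3), against 26.1% of all IPC RBPJ peaks, and 14.7% of the 34 in RGC RBPJ (6.45 to 30.1), against 10.1%. They lay at Ctnnb1, Tcf7l2 and Lef1. Notch was called in both cell types in 1 consensus peak, at the start of Apc, which was 20.0% of the 5 in IPC Notch (against 23.5%) and 16.7% of the 6 in RGC Notch (against 13.4%). Both proteins of the same cell type were called in 6 peaks (15.0%, 7.06 to 29.1, against 9.45%), and since both were called over the same controls this count is given as a description. Of these, 2 were at Tcf7l2, 2 at Lef1, 1 at Tcf7l1 and 1 at Ctnnb1.

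By gene, 8 of the 9 members had a consensus peak, against 39.7% of the 21938 protein-coding genes. RGC RBPJ peaks were found at 8 members (against 31.7% of genes), RGC Notch peaks at 4 (11.7%), IPC RBPJ peaks at 5 (16.4%) and IPC Notch peaks at 3 (6.98%). A long gene with distant neighbours can hold more peaks, and the members had a median territory of 208 kb, against 45.0 kb over all genes. Territory is the sequence that lies nearer to a start site of the gene than to one of any other. Per Mb of territory the 9 genes had 20.1 consensus peaks and all protein-coding genes 7.63. Without Tcf7l2 the other members had 25 peaks, or 17.1 per Mb. The density was 28.3 per Mb over the 4 Tcf/Lef factors, with 30 peaks, 14.4 at Ctnnb1, with 3, and 9.72 over Axin1, Axin2, Apc and Gsk3b, with 7. In order of density the genes were Tcf7l1 (46.0), Tcf7l2 (28.2), Lef1 (18.3), Tcf7 (16.1), Ctnnb1 and Axin2 (14.4 each), Apc (9.90), Gsk3b (8.04) and Axin1 (0). The value of Gsk3b was close to that of all genes. The files used here hold no values of single samples, so this order has no measured error. It also rests on the start sites counted: with those of protein-coding transcripts only, Tcf7l1 had 4 peaks in place of 9, Ctnnb1 7 in place of 3 and Tcf7l2 17 in place of 15, and with 5′ ends only Axin2 had 6 in place of 3.

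**Figure D2:**
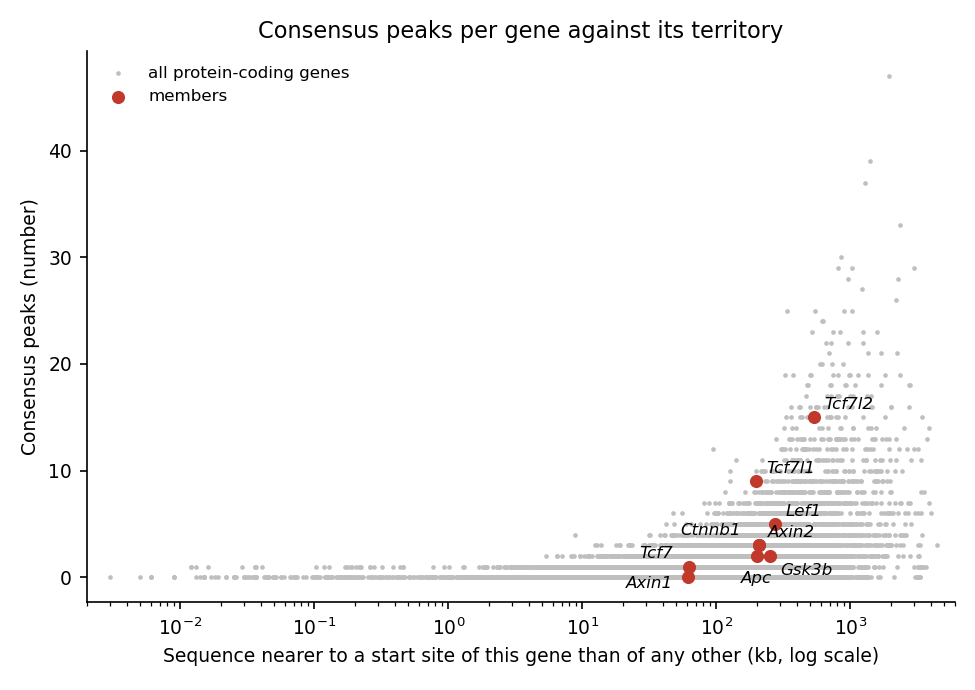
Consensus peaks per gene (number) against territory (kb, log scale) for all protein-coding genes (grey points) and the 9 members (red points, named). Tcf7l2 stands highest among the members with 15 peaks over 531 kb, and Tcf7l1 next with 9 over 196 kb, whereas Axin1 lies at 0 over 61.3 kb.

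The clusters group consensus peaks by the averaged binding intensity of the 4 groups, which the files do not hold. In the study's description, both proteins bind in RGCs in cluster 4 and in both cell types in clusters 2, 6 and 7, whereas NOTCH alone binds in RGCs in cluster 1, RBPJ alone in RGCs in clusters 5 and 8, and RBPJ alone in IPCs in cluster 3. Of the 40 peaks, 22 were in clusters 2, 4, 6 and 7 (55.0%, 39.8 to 69.3), against 36.3% of all consensus peaks, and the background again lay below the interval. Cluster 6 held 8 (20.0%, 10.5 to 34.8, against 10.8%), clusters 4 and 7 held 6 each (15.0%, against 9.79% and 11.0%) and cluster 2 held 2 (5.0%, against 4.76%). Cluster 5 held 11 (27.5%, 16.1 to 42.8, against 22.5%). Clusters 3 and 8 held 2 each (5.0%, against 16.3% and 14.4%), and cluster 1 held 3 (7.50%, against 10.5%). For each cluster taken alone the background lay inside the interval.

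**Figure D3:**
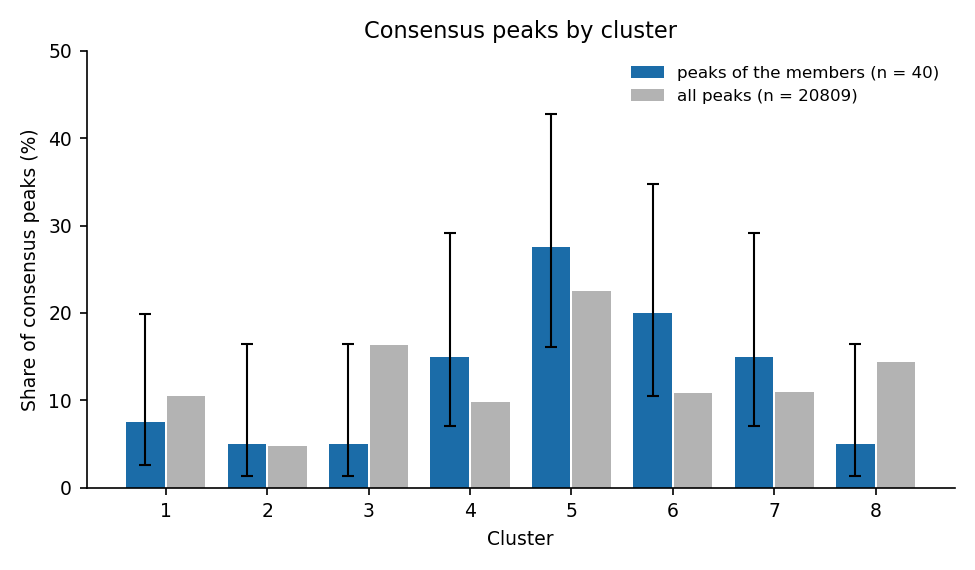
Share of consensus peaks (%) in each of the 8 clusters, for the 40 peaks of the 9 genes (blue, with Wilson 95% intervals) and for all 20809 (grey). The blue bars exceed the grey ones in clusters 2, 4, 5, 6 and 7 and fall short of them in clusters 1, 3 and 8.

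A cluster and a call did not always say the same of a peak. Of the 22 peaks in clusters 2, 4, 6 and 7, 15 were called in 1 list and 4 held both proteins of a cell type. Over the consensus peaks of all clusters, 82.9% were called in 1 list and 9.45% held both proteins. Shares over all peaks of clusters 2, 4, 6 and 7 alone are not given here, so the member counts are a description. At Tcf7l1 a cluster 1 peak was called in RGC RBPJ and not in RGC Notch, and at Tcf7l2 another cluster 1 peak was called in IPC Notch only. Over all peaks, 38.6% of cluster 1 held an RGC RBPJ call and 2.33% an IPC Notch call. The 8 cluster 6 peaks of the members held 7 RGC RBPJ calls, 1 RGC Notch call and 2 IPC Notch calls, whereas 64.2%, 19.7% and 48.3% of all cluster 6 peaks held these calls. The 6 cluster 7 peaks held 5 RGC RBPJ calls and 4 IPC RBPJ calls, against 73.7% and 52.9% over the cluster.

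**Figure D4:**
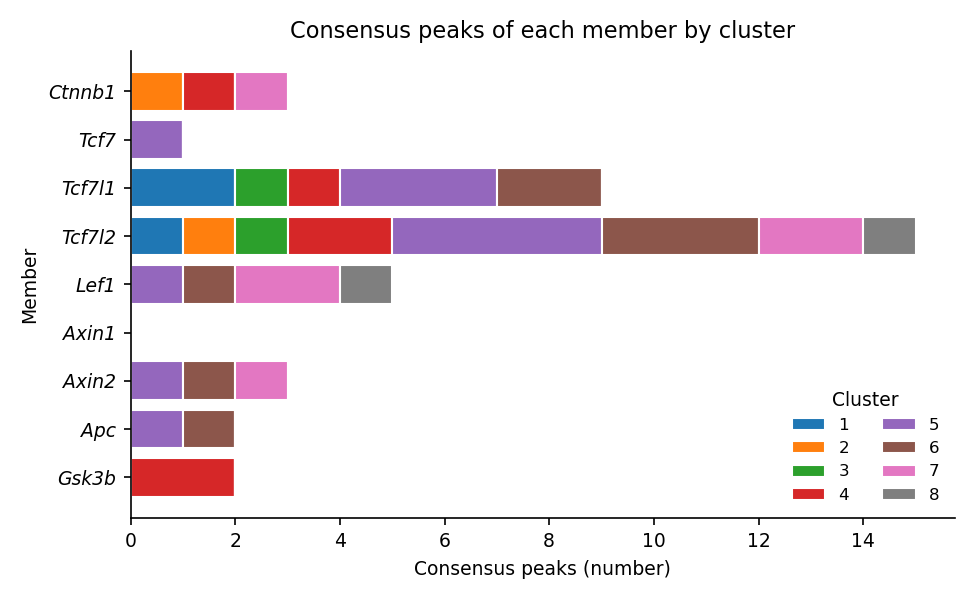
Consensus peaks (number) of each member, stacked by cluster from 1 to 8. Tcf7l2 has peaks in all 8 clusters, both Gsk3b peaks are in cluster 4, the single Tcf7 peak is in cluster 5, and Axin1 has none.

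Ctnnb1 encodes beta-catenin, the transcriptional effector of the pathway and a component of cell junctions. It lies on the plus strand of chromosome 9, from 120929216 to 120960507 (ENSMUSG00000006932), and had 3 consensus peaks in clusters 2, 4 and 7. The most widely called was the intergenic one of 1163 bp, whose near edge lay 58.7 kb upstream of a start site (120869313 to 120870475, cluster 2), whose word is printed above. The RGC RBPJ peak there was 772 bp wide, the IPC RBPJ peak 1153 bp and the IPC Notch peak 845 bp, and the 3 peaks covered nearly the same stretch. The other 2 peaks lay inside the gene and were called in RGC RBPJ only. One of 740 bp (120930602 to 120931341, cluster 4) lay in an intron 1.39 kb downstream of the nearest start site, and one of 2911 bp (120934182 to 120937092, cluster 7) had its midpoint in an intron and began 0.364 kb downstream of a start site. No peak of any list covered a start site of Ctnnb1. The number of peaks depended on the start sites used: with protein-coding transcripts alone it was 7, because 4 peaks otherwise nearest to Ulk4 were then nearest to Ctnnb1, of which one was called in RGC RBPJ, IPC RBPJ and IPC Notch at 33.2 kb.

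Tcf7 encodes TCF1, a Tcf/Lef factor best known from T cells. It lies on the minus strand of chromosome 11, from 52252371 to 52283014 (ENSMUSG00000000782), and had 1 consensus peak, in RGC RBPJ only. The peak was 3313 bp wide (52283733 to 52287045, cluster 5) and ended 0.719 kb upstream of the nearest start site. It held 4 TTCCCA words, 2 CTTTGAT words and 13 GATC sites. More peaks were found at 17.8% of protein-coding genes.

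Tcf7l1 encodes TCF3, which acts mainly as a repressor of Wnt targets in stem cells. It lies on the minus strand of chromosome 6, from 72626378 to 72789254 (ENSMUSG00000055799), and had 9 consensus peaks. Only 1.26% of protein-coding genes had more. All 9 lay in the gene body, with midpoints from 0.937 to 152 kb downstream of its 5′ end. RGC RBPJ was called in 8, RGC Notch in 1, IPC RBPJ in 1 and IPC Notch in none. The peak on the 5′ end was 4244 bp wide (72786196 to 72790439, cluster 6) and was called in RGC RBPJ only. The peak called for both proteins lay near the 3′ end of the gene (72634746 to 72639559, cluster 1), with 4814 bp in RGC Notch and 3375 bp in RGC RBPJ, and was the widest RGC Notch peak at any member. The single IPC peak (IPC RBPJ, 1290 bp, cluster 3) lay in an intron where no RGC peak was called. A further RGC RBPJ peak covered the start of a non-coding transcript of the gene (72670025 to 72672365, cluster 5), 118 kb inside it. Non-coding transcripts decided much of the count: with the start sites of protein-coding transcripts only, or of 5′ ends only, Tcf7l1 had 4 peaks, because 6 of its 9 were then nearest to Tgoln1 and 1 other peak was gained.

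Tcf7l2 encodes TCF4, a Tcf/Lef factor with several promoters and isoforms. It lies on the plus strand of chromosome 19, from 55741820 to 55933654 (ENSMUSG00000024985). Only 83 protein-coding genes (0.378%) had more consensus peaks than its 15. Their midpoints ran from 163 kb upstream to 321 kb downstream of the 5′ end, and 6 lay upstream of the gene or on its start, 3 inside it further downstream and 6 beyond its 3′ end. RGC RBPJ was called in 12, RGC Notch in 2, IPC RBPJ in 3 and IPC Notch in 3. The peak on the 5′ end (55739839 to 55744510, cluster 7) covered 11 start sites of the gene. Its RGC RBPJ peak was 4672 bp wide and its IPC RBPJ peak 2050 bp, and both covered the 5′ end, whereas the IPC Notch peak of 1187 bp began downstream of it, at 55741946, and covered another start site. The second RGC RBPJ peak on start sites (55894253 to 55897935, cluster 6) lay 154 kb inside the gene on the internal promoter printed above, and was called in no other list. An IPC Notch peak (55888828 to 55891070, 2243 bp, cluster 1) ended 2.28 kb upstream of an internal start site and was called in no RGC list.

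Further downstream in the gene, the widest consensus peak of any member (55910155 to 55916238, 6084 bp, cluster 7) was called in 3 lists. Its RGC Notch peak was 2245 bp wide, its IPC RBPJ peak 3541 bp and its RGC RBPJ peak 2424 bp. The Notch and RBPJ peaks of RGCs did not overlap each other there, since the first ended at 55912399 and the second began at 55913815, and the IPC RBPJ peak joined them into 1 consensus peak. It held 4 CTTTGAT words, the most of any member peak, and 62.9% of consensus peaks of its width held at least 1. Beyond the 3′ end, RGC RBPJ and IPC Notch peaks of 2461 and 1582 bp both began at 55940435 (to 55942895, cluster 6). An RGC Notch peak lay 163 kb upstream, in an intron of Vti1a (55578059 to 55578963, 905 bp, cluster 4), with no RGC RBPJ call. At Tcf7l2 the Notch peaks of RGCs and of IPCs lay in different consensus peaks: 2 held RGC Notch, 3 held IPC Notch and none held both. Over all peaks, 13.4% of RGC Notch peaks and 23.5% of IPC Notch peaks were shared, so with this few peaks the lack of a shared one does not set Tcf7l2 apart. The remaining peaks were called in RGC RBPJ only, apart from 1 in IPC RBPJ. Under 5′ ends only, 4 of the peaks beyond the 3′ end were nearest to Habp2 and 2 peaks at Vti1a were gained, which gave 13.

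**Figure D5:**
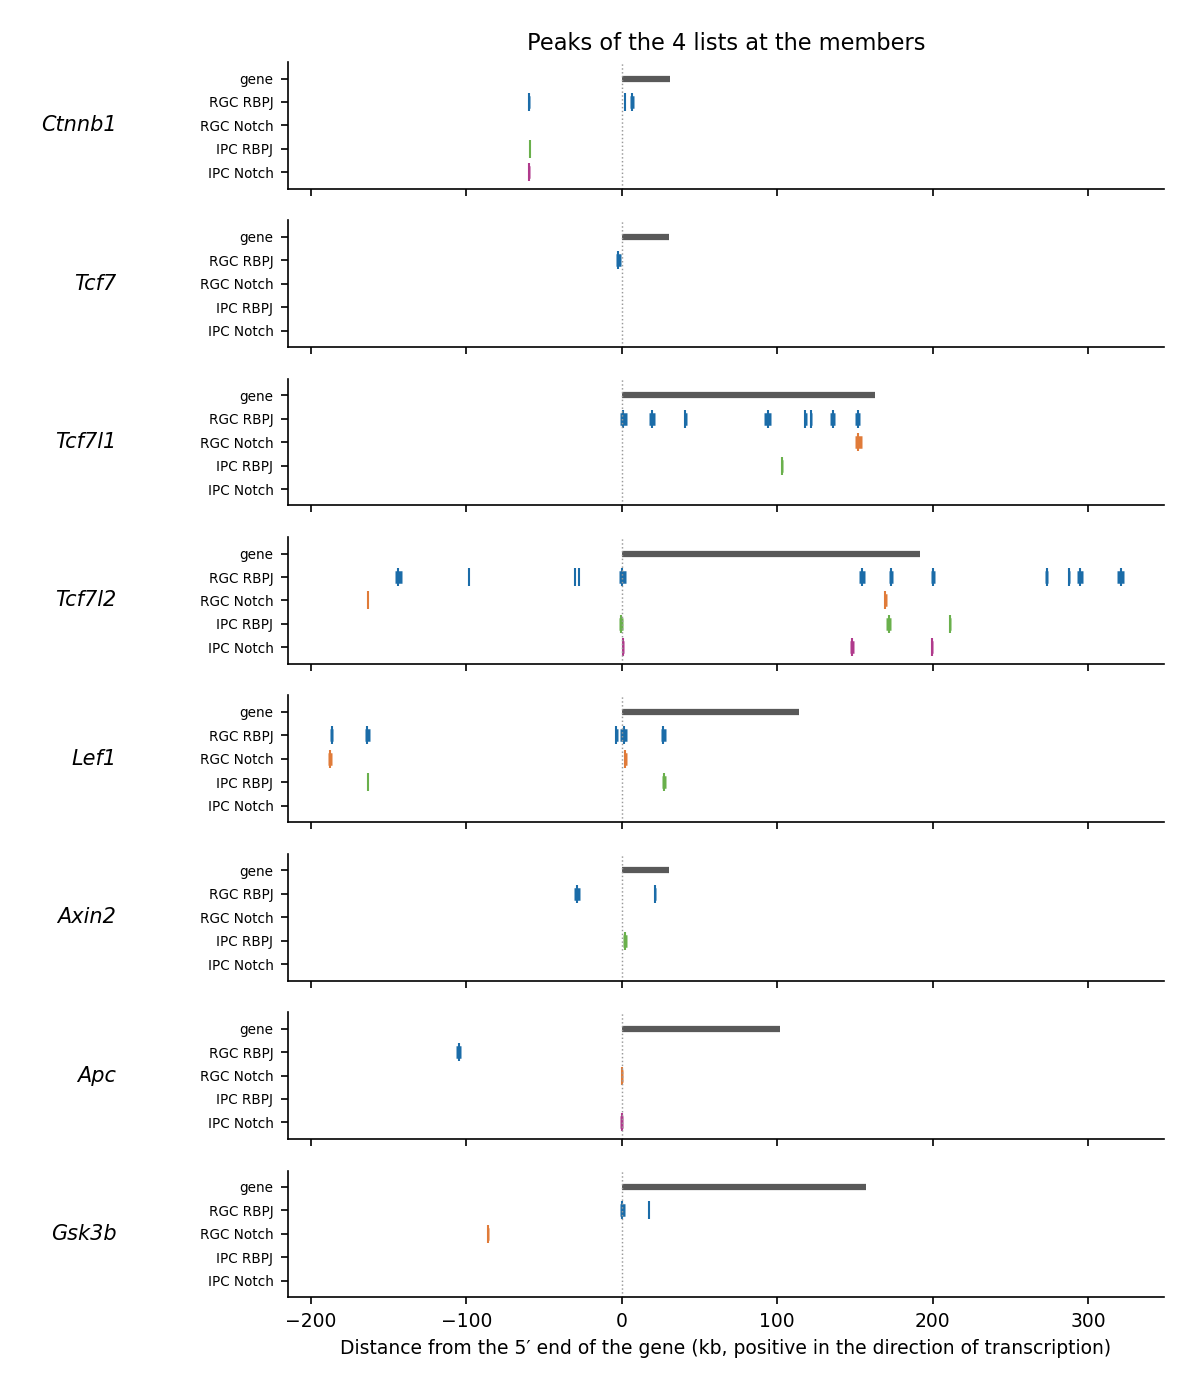
Peaks of the 4 lists at the 8 members with a peak, by distance from the 5′ end of the gene (kb, positive in the direction of transcription), with 1 lane per list and the gene as a dark bar. The Tcf7l1 peaks fill its gene body, those of Tcf7l2 and Lef1 extend beyond both sides of the 5′ end, and the IPC Notch lane is empty at 5 of the 8 genes.

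Lef1 encodes LEF1, a Tcf/Lef factor known for its part in the development of the hippocampus. It lies on the plus strand of chromosome 3, from 131110471 to 131224356 (ENSMUSG00000027985), and all 5 of its consensus peaks were called in RGC RBPJ. RGC Notch was called in 2, IPC RBPJ in 2 and IPC Notch in none, so that 4 of the 5 peaks were called in more than 1 list. Over all consensus peaks, 82.9% were called in 1 list only, and with 5 peaks this count is a description. The peak on the 5′ end (131109551 to 131113900, cluster 7) held an RGC RBPJ peak of 4142 bp that covered the 5′ end and an RGC Notch peak of 2245 bp that began downstream of it and covered the internal start site printed above. The other peak with both RGC proteins was intergenic, 185 kb upstream (130921463 to 130925019, cluster 8), with 2019 bp in RGC RBPJ and 2555 bp in RGC Notch. RBPJ was called in both cell types at 162 kb upstream (130945414 to 130948302, cluster 5), where the IPC peak of 417 bp lay inside the RGC peak of 2889 bp, and in an intron (131135399 to 131138711, cluster 7), with 3285 bp in RGCs and 2489 bp in IPCs. The fifth peak (131106029 to 131107953, cluster 6) was called in RGC RBPJ only and ended 2.52 kb upstream of a start site. A further RGC RBPJ peak inside an intron of Lef1 (131212167 to 131214116, cluster 5) was nearest to a start site of Hadh, at 57.9 kb, and was not counted.

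In the destruction complex, AXIN1 and AXIN2 are the scaffolds, and Axin2 is also a well-known transcriptional target of the pathway that feeds back on it. Axin1, on chromosome 17 from 26138688 to 26195811 (ENSMUSG00000024182), had no consensus peak. The nearest lay 67.7 kb from a start site (26067440 to 26070944, RGC RBPJ only, cluster 5) and belonged to Rab11fip3. Axin2, on the plus strand of chromosome 11 from 108920349 to 108950783 (ENSMUSG00000000142), had 3 peaks, none of them called for Notch. An IPC RBPJ peak of 2954 bp (108920926 to 108923879, cluster 7) covered 3 coding start sites but not the 5′ end, held 3 CTTTGAT words, and had the highest GC content of any member peak, 61.0%. Axin2 was the only member where the peak on a start site was called in IPCs and not in RGCs. Over all consensus peaks, on a start site or not, 18.3% were called in IPC RBPJ only. Its 2 RGC RBPJ peaks lay 26.9 kb upstream (3693 bp, cluster 6) and in the gene (1723 bp, cluster 5). With 5′ ends of genes as the only start sites Axin2 had 6 peaks, because 3 otherwise nearest to Cep112 were gained, 1 called in RGC RBPJ only, 1 in both RGC lists and 1 in RGC Notch only.

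Apc encodes the large scaffold that binds beta-catenin in the complex, and lies on the plus strand of chromosome 18 from 34220924 to 34322552 (ENSMUSG00000005871). The peak on its 5′ end (34219974 to 34221958, cluster 6) was called for Notch in both cell types and for RBPJ in neither, with 1476 bp in RGC Notch and 1985 bp in IPC Notch. It was the only member peak of this pattern, which 98 of all consensus peaks (0.471%) had. The other Apc peak was called in RGC RBPJ only, 103 kb upstream (34114628 to 34117722, 3095 bp, cluster 5). Gsk3b encodes the kinase, and lies on the plus strand of chromosome 16 from 38089001 to 38246084 (ENSMUSG00000022812). Both of its consensus peaks were called in RGC RBPJ only and were in cluster 4. One covered the 5′ end (38087608 to 38090874, 3267 bp) and the other lay in an intron 15.5 kb downstream of a start site (38105779 to 38106792, 1014 bp). An RGC Notch peak of 1551 bp (38002029 to 38003579) was nearest to Gsk3b by its own edges, but the consensus peak that holds it, in cluster 5, was nearest to another gene.

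On start sites, 8 of the 40 peaks covered 1 of their own gene (20.0%, 10.5 to 34.8), against 16.6% of all consensus peaks. The 5′ end itself was covered at Tcf7l1, Tcf7l2, Lef1, Apc and Gsk3b. RBPJ in RGCs was called in that peak in 4 of these 5 genes, and Notch in RGCs at Lef1 and Apc. The median distance from the peaks of the members to a start site was 16507 bp, against 21051 bp for all peaks. Midpoints lay in introns for 19 of the 40 (47.5%, against 47.3% of all), in intergenic sequence for 14 (35.0%, against 38.7%), in exons for 5 (12.5%, against 8.05%) and within 5 kb upstream of genes for 2 (5.0%, against 5.94%), and each of these backgrounds lay inside the interval of its share.

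The peaks of the members were wide, with a median of 2900 bp (390 to 6084) against 1890 bp for all consensus peaks. In RGC RBPJ the 34 peaks had a median of 2900 bp against 2059 bp for the list, and in RGC Notch the 7 had 2245 bp against 2389 bp. The 8 peaks of IPC RBPJ had 1670 bp against 1398 bp, and the 5 of IPC Notch 1582 bp against 1284 bp. GC content had a median of 48.6% (39.2 to 61.0) against 45.3%. GATC sites numbered a median of 6 in both sets, and 2 of the 40 peaks held none (5.0%, against 9.76%), both at Tcf7l2.

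Sequence words did not set the peaks of these genes apart from others. TTCCCA occurred 118 times in them, or 1.08 per kb (0.892 to 1.29, an exact Poisson interval), against 1.17 per kb over all consensus peaks. It was present in 35 of the 40 (87.5%), and in a mean of 86.9% of consensus peaks within 10% of the same width. TTCCCAC, each match of which is also a match of TTCCCA, occurred at 0.228 per kb (0.148 to 0.337) against 0.270, and in 17 peaks (42.5%, against 47.7% at the same width). The Tcf/Lef word CTTTGAT occurred at 0.174 per kb (0.105 to 0.271) against 0.189, and in 11 peaks (27.5%, against 37.4% at the same width). TAATTA occurred at 0.393 per kb (0.284 to 0.529) against 0.358, and in 24 peaks (60%, against 51.8%). All 4 words were searched on both strands, and each background density lay inside its interval. The most TTCCCA words, 9, lay in an RGC RBPJ peak of 4912 bp inside Tcf7l1 (cluster 5), and the next, 8, in one of 3642 bp beyond Tcf7l2 (cluster 5). The 5 peaks without the word were at Tcf7l1, Tcf7l2 (2), Lef1 and Gsk3b.

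The other genes of the pathway were taken from a list of 43 that holds receptors, transducers, kinases, co-activators, antagonists and targets. It also holds genes of cell junctions (Cdh2, Ctnna1, Ctnna2, Ctnnd1, Ctnnd2 and Jup). All 43 could be placed. Of these, 28 had a consensus peak (65.1%, against 39.7% of genes) and 15 had none. The 43 genes had 92 peaks, a median of 1 per gene and 8.49 per Mb of territory, beside 7.63 for all genes and 20.1 for the 9 members. The value of 8.49 includes the wide territories of Cdh2 (2190 kb), Ctnnd2 (1937 kb) and Ctnna2 (1057 kb). These had 5.93, 6.71 and 4.73 peaks per Mb. Of the 43 genes, 8 had more peaks per Mb than the 9 members together. RGC RBPJ was called in 56 of the 92 (60.9%), RGC Notch in 23 (25.0%), IPC RBPJ in 19 (20.7%) and IPC Notch in 11 (12%), and 43.5% were in clusters 2, 4, 6 and 7. By count, the most peaks, 13 each, were at Cdh2 and Ctnnd2, which encode the cadherin and catenin of cell junctions, and at Myc, a target of the pathway. Per Mb, Cdh2 and Ctnnd2 lay below the 7.63 of all genes. The territory of Myc was wider than that of Ctnna2, so these counts do not rank the genes by density.

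For the 3 members with at least 5 consensus peaks, genes with at least 10 were ranked by how far their shares of the 8 clusters overlapped, where 1 would be identical shares. Those most like Tcf7l1 were Qk (0.940), Egln3 (0.911) and Snd1 (0.844), those most like Tcf7l2 were Lrig1 (0.873), Zfp608 (0.872) and Sema6d (0.871), and those most like Lef1 were Plxna2 (0.892), Bcor (0.718), Ctnnd2 and Zfp36l1 (0.708 each). Between 275 and 276 genes were compared, the points are the 8 clusters, and with 5 peaks at Lef1 the shares are coarse. The values named are the highest of those compared, and no typical overlap is given here. They rank genes and do not show that any is unusually like a member.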

How the data were processed

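NOTCH and RBPJ TaDa data of both cell types were analysed from the peak files that the authors deposited. The authors had trimmed the reads, mapped them to mm10 and binned them at GATC sites. Macs2 was run in broad mode on each fusion sample with each Dam-only control, and after an FDR filter only peaks found in all runs of a condition were retained. The files used here are 4 pooled lists and 1 file of consensus peaks with k-means clusters. Their deposited values are positions in bp and cluster numbers. Score columns are constant, and there were 0 columns of single samples, so depth per sample is not known and 0 tests were run.

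Consensus peaks were assigned to the nearest start site of any transcript of a protein-coding gene (GENCODE release M21, distance from the edge of the peak). Overlap was counted from 1 bp, and 2 mitochondrial consensus peaks were left out. Words were counted on both strands with overlapping matches. Tools were Python 3.11.15 with pandas 2.3.3, numpy 2.4.6, matplotlib 3.10.9 and scipy 1.17.1. The procedures for nearest start sites, overlaps and words were tested on simulated data.

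The members, the pathway list and the alternatives were chosen with earlier results of these data known. Named were all 9 members, their peaks on a start site, in at least 2 lists or nearest to a start site, the 3 genes of the pathway list with the most peaks, and the 3 genes most like each member with at least 5 peaks. Other single peaks were picked after their values were seen. Alternatives covered the start sites used, the genes that compete, distance from the midpoint, a limit of 100 kb, gene bodies, peaks of at least 1000 bp (in place of a stricter call, which needs a score), members without Tcf7l2, an overlap of 50%, the longer word and the central 500 bp.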

Additional observations from a re-analysis of the deposited data

How the results depend on the processing

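The 10 results on the members (their number of peaks, their shares and their word density) were recomputed in 83 alternative values, of which 75 moved by less than a factor of 1.5 for the number of peaks or stayed inside the interval of the share or density. That count does not ask whether the background stayed inside or outside the interval. Such a change was seen for RGC RBPJ and IPC Notch, as given above. It was also seen for peaks called in 1 list (66.7%, 51.0 to 79.4, with 5′ ends only, against 82.9%). The number of peaks was 18 when all annotated genes competed for a peak, 25 when peaks in the gene body or 5 kb upstream were counted, and 25 without Tcf7l2. When all annotated genes competed, 77.8% of the peaks were in clusters 2, 4, 6 and 7, 44.4% were on a start site, and TTCCCA stood at 0.819 per kb. The density of TTCCCA was 1.67 per kb in the central 500 bp of each peak, and the longer word TTCCCAC occurred at 0.228 per kb. The central density over all consensus peaks is not given here, so 1.67 has no background to be set against. The share on a start site with all annotated genes competing has none either. The cluster share and the density of TTCCCA over all consensus peaks do not depend on which gene a peak goes to. They were 36.3% and 1.17 per kb, beside 77.8% and 0.819 per kb. With all annotated genes competing, 22 of the 40 peaks were nearest to another gene, which left 1 at Ctnnb1, 3 at Tcf7l1, 6 at Tcf7l2 and 2 at Lef1. The start sites of protein-coding transcripts only, an alternative chosen after seeing the data, gave 41 peaks in all, with 7 at Ctnnb1, 4 at Tcf7l1 and 17 at Tcf7l2. No paired analysis was possible because the lists are pooled over samples and carry no replicate, and for the same reason no replicate could be left out. Depth per sample is not known from these files.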
